A study of Mus musculus with 90 samples.

Results

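Expression of 8 genes was followed in 90 mouse libraries: Fkbp5, Tsc22d3, Sgk1, Zbtb16, Pdk4, Cdkn1a, Mt1 and Mt2, which are known as genes that respond to glucocorticoids, fasting, cell stress or metals. They are the rows of the deposited table with the Entrez identifiers 14229, 14605, 20393, 235320, 27273, 12575, 17748 and 17750, and make up 8 of its 20414 genes. The libraries were made from total RNA of 15 tissues of normal C57BL/6 females (C57BL/6J in the study's methods), 3 in estrus and 3 in diestrus per tissue, and no group was treated or carried a modified allele. The phases had been told apart by methylene blue staining of vaginal smears, with each cycle followed daily. By the study's account serum estrogen and progesterone of mice were measured as a further aid. The labels give an age of 10 weeks, whereas the study's methods give 8 weeks. By the study's account 3 mice per phase were the biological replicates and gave all 15 tissues, but the labels do not say that a replicate number marks 1 mouse. The hour of dissection is not given in the sources used here. The values are FPKM, fragments scaled to transcript length and to the mapped fragments of the library, so levels are given per length and may be set side by side between genes.

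Glucocorticoids are adrenal steroids that enter cells and bind the glucocorticoid receptor, a transcription factor held in the cytoplasm by chaperones until the steroid arrives. The bound receptor moves to the nucleus and raises a set of genes that occurs in many tissues, and since secretion of the steroid follows a daily rhythm and rises with stress, these genes are read as a trace of recent exposure. Metallothioneins are small cysteine-rich proteins that bind zinc, copper and cadmium, and their genes respond both to metals, through the factor Mtf1, and to glucocorticoids.

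Promoter sequences of RefSeq (GRCm38.p6) were at hand for 7 of the 8 genes, in 15 windows. Bases 250 to 11 before an annotated start were searched on both strands for the core of the metal response element, TGCACNC or TGCGCNC, and for the glucocorticoid response element, taken as AGAACA and TGTTCT 3 bases apart. The metal core occurred in 20.4% of the 32851 windows of all genes, and 3 or more copies in 1.18% of them. Mt2 had 3 copies, starting 223, 128 and 50 bases before its start, and Mt1 had 1 copy, 23 bases before the start. The counts hold for these windows alone, which end short of the start, so elements nearer to it or within the gene were not searched. They depend on where the annotated start lies, so 1 copy in Mt1 and 3 in Mt2 do not rank these genes by their number of elements. Of all windows, 3 held the glucocorticoid element (0.00913%), and 1 of these was a window of Sgk1, a gene with 6 annotated windows, where it began 189 bases before the start. Both metallothionein windows and this Sgk1 window are printed, since Mt1 and Mt2 kept close company in the libraries and Sgk1 had the largest difference between phases of the 8 genes; capitals mark the matches, which are a description of the letters and not evidence of a bound factor.
Mt2 (chr8:94172368-94172607, plus strand): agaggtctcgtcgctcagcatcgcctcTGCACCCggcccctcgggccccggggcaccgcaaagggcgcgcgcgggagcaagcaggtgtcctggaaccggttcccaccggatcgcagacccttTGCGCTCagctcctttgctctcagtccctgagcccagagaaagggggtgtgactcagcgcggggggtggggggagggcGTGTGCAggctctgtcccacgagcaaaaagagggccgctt
Mt1 (chr8:94178839-94179078, plus strand): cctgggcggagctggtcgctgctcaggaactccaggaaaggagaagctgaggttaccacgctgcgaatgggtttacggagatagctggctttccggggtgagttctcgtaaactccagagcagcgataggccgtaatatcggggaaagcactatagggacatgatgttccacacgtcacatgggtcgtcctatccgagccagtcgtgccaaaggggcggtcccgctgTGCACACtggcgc
Sgk1 (chr10:21993640-21993879, plus strand): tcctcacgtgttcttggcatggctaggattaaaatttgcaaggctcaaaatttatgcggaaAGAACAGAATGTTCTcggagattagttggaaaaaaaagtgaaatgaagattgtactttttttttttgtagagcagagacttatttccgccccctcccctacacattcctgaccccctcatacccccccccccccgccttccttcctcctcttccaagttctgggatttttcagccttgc

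Tissue labels were checked with 47 marker genes. All 15 tissues had at least 1 marker that was highest there, 43 of the 47 markers were highest in their tissue, and no marker was below 5.01 FPKM in a library of its tissue. The library of BAT estrus replicate 3 stood apart, with 12048 genes listed at 0 against 2404 to 4820 in the other 89 libraries, so low values there say little. The table holds no read counts or totals. Aorta estrus replicate 1 also stood apart in tissue makeup: its summed level of 4 smooth muscle genes was 15590 FPKM against 1551 to 2376 FPKM in the other aorta libraries, and that of 5 adipocyte genes was 273 FPKM against 2249 to 2590 FPKM. Vein libraries held 1421 to 4380 FPKM of these smooth muscle genes, a range that takes in the other aorta libraries. Eln, a marker of aorta, ran from 57.4 to 1239 FPKM in that tissue. Whether the aorta markers rank highest without aorta estrus replicate 1 was not tested. In duodenum the summed smooth muscle genes stood at 1628 FPKM in estrus replicate 1 and at 151 to 415 FPKM in the other 5 libraries. In a bulk sample, fewer cells of a type and less RNA per cell cannot be told apart.

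**Figure D1:**
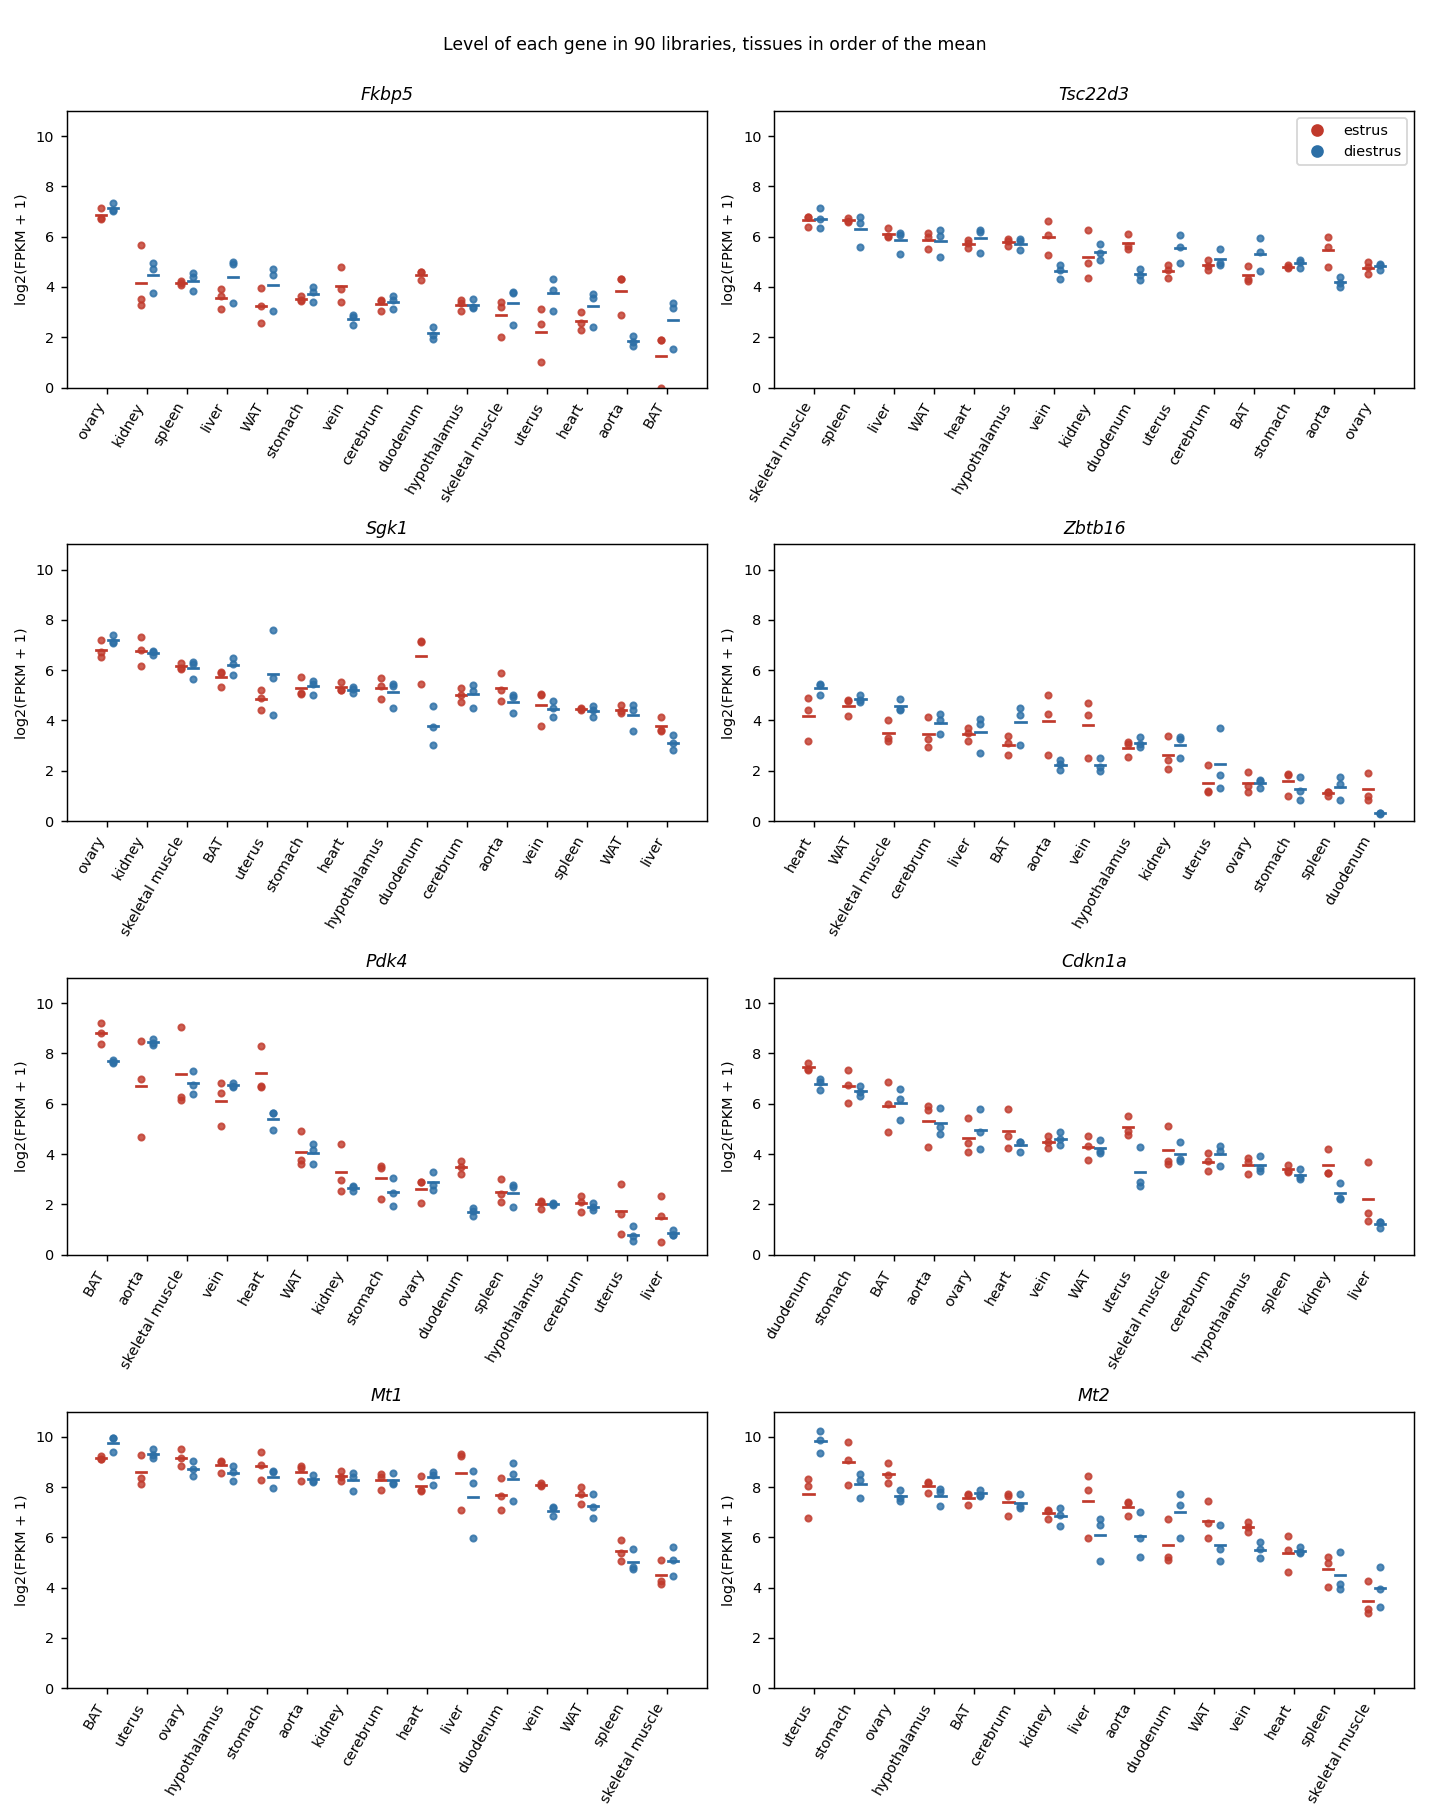
Level of each of the 8 genes as log2(FPKM + 1) in every library (points: 3 estrus and 3 diestrus libraries per tissue, bars: their means), with tissues ordered by the mean over 6 libraries. The means of Fkbp5 in ovary and of Pdk4 in BAT, aorta, skeletal muscle, vein and heart stand above those of the other tissues. Mt1 is lowest in spleen and skeletal muscle.

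The first question was where each gene was highest. Tissues were ordered by the mean of log2(FPKM + 1) over their 6 libraries, which need not be the order of the FPKM means, and each tissue was compared with the next in the order by a two-sided exact permutation test with Benjamini-Hochberg adjustment over 112 such neighbours. No neighbours differed at an adjusted p of 0.05, since the smallest p that 6 libraries against 6 allow is 0.00216 and only 3 neighbours reached it, each with an adjusted p of 0.0808 in this exact test. A call thus needed more neighbours at this smallest p than the 3 found. These 3 steps without overlap of the libraries are named below as values. Levels are means ± SD over the 6 libraries of a tissue.

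Fkbp5, a co-chaperone that lowers the affinity of the glucocorticoid receptor for its ligand and is itself raised by it, was highest in ovary. Its mean level was 129 ± 21.5 FPKM in ovary, 22.9 ± 15.7 FPKM in kidney, 17.6 ± 3.24 FPKM in spleen, 16.9 ± 10.1 FPKM in liver, 13.6 ± 8.23 FPKM in WAT, 11.5 ± 2.11 FPKM in stomach, 11.2 ± 8.16 FPKM in vein and 9.45 ± 1.65 FPKM in cerebrum. It was 12.5 ± 10.1 FPKM in duodenum, 8.83 ± 1.28 FPKM in hypothalamus, 8.46 ± 4.06 FPKM in skeletal muscle, 8.90 ± 6.41 FPKM in uterus, 7.24 ± 3.58 FPKM in heart, 8.66 ± 8.05 FPKM in aorta and 4.11 ± 3.69 FPKM in BAT. Ovary, with 102 to 159 FPKM, stood apart from kidney as the next tissue (exact permutation p = 0.00216), and all later neighbours overlapped. The SD of kidney was widened by estrus replicate 3, with 49.6 FPKM against 8.84 and 10.4 FPKM in the other estrus libraries. The diestrus libraries of kidney spread as well, from 12.5 to 30.4 FPKM.

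Tsc22d3, which encodes the leucine zipper protein GILZ that dampens inflammatory transcription, had the most even levels of the 8 genes, with a span of 3.84-fold between the highest and the lowest mean. The tissue means were 103 ± 21.4 FPKM in skeletal muscle, 91.4 ± 22.6 FPKM in spleen, 63.7 ± 13.8 FPKM in liver, 58.6 ± 15.2 FPKM in WAT, 57.4 ± 14.6 FPKM in heart, 53.2 ± 6.26 FPKM in hypothalamus, 45.2 ± 30.2 FPKM in vein and 41.7 ± 19.9 FPKM in kidney. It was 37.7 ± 19.2 FPKM in duodenum, 36.1 ± 17.8 FPKM in uterus, 31.2 ± 7.05 FPKM in cerebrum, 31.5 ± 16.4 FPKM in BAT, 28.4 ± 2.72 FPKM in stomach, 31.6 ± 19.3 FPKM in aorta and 26.9 ± 3.29 FPKM in ovary. All neighbours in this order overlapped. Ovary, the top tissue of Fkbp5, was the lowest of Tsc22d3.

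Sgk1, a kinase that raises sodium transport and is induced by glucocorticoids and mineralocorticoids, was high in ovary and kidney and low in liver. From the highest they were 130.4 ± 28.4 FPKM in ovary, 109 ± 29.3 FPKM in kidney, 69.0 ± 11.3 FPKM in skeletal muscle, 63.0 ± 17.1 FPKM in BAT, 57.9 ± 67.3 FPKM in uterus, 39.7 ± 8.55 FPKM in stomach, 37.9 ± 4.27 FPKM in heart and 37.3 ± 10.6 FPKM in hypothalamus. It was 60.6 ± 61.8 FPKM in duodenum, 32.5 ± 7.76 FPKM in cerebrum, 33.4 ± 13.8 FPKM in aorta, 23.6 ± 7.91 FPKM in vein, 20.5 ± 2.00 FPKM in spleen, 19.5 ± 4.68 FPKM in WAT and 10.4 ± 3.74 FPKM in liver. The large SD of uterus came from diestrus replicate 2, with 193 FPKM against 51.1 and 17.4 FPKM in the other two. That of duodenum followed the phases, as given below.

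Zbtb16, a zinc finger transcription factor also known as PLZF, was highest in heart and WAT. Its means were 28.7 ± 13.1 FPKM in heart, 25.7 ± 4.67 FPKM in WAT, 16.9 ± 7.66 FPKM in skeletal muscle, 12.5 ± 4.69 FPKM in cerebrum, 10.8 ± 3.70 FPKM in liver, 11.5 ± 6.75 FPKM in BAT, 11.1 ± 11.6 FPKM in aorta and 9.78 ± 9.33 FPKM in vein. It was 7.21 ± 1.42 FPKM in hypothalamus, 6.57 ± 2.80 FPKM in kidney, 3.69 ± 4.11 FPKM in uterus, 1.89 ± 0.592 FPKM in ovary, 1.78 ± 0.855 FPKM in stomach, 1.40 ± 0.589 FPKM in spleen and 0.895 ± 0.994 FPKM in duodenum. Duodenum was below the mean of 1 FPKM asked for in the tests.

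Pdk4, a kinase that shuts the pyruvate dehydrogenase complex and so spares glucose in fasting, had the widest span, 226-fold between the highest and the lowest mean. In order, the means were 330.3 ± 161 FPKM in BAT, 259 ± 147 FPKM in aorta, 171 ± 179 FPKM in skeletal muscle, 91.3 ± 30.1 FPKM in vein, 108 ± 106 FPKM in heart, 16.8 ± 6.93 FPKM in WAT, 7.91 ± 5.95 FPKM in kidney and 6.40 ± 3.24 FPKM in stomach. It was 5.91 ± 1.85 FPKM in ovary, 6.26 ± 4.53 FPKM in duodenum, 4.76 ± 1.64 FPKM in spleen, 3.03 ± 0.307 FPKM in hypothalamus, 2.96 ± 0.659 FPKM in cerebrum, 1.85 ± 2.09 FPKM in uterus and 1.46 ± 1.36 FPKM in liver. The 5 upper tissues ended at heart, whose 6 libraries lay above those of WAT (exact permutation p = 0.00216). The lowest aorta library, at 24.7 FPKM, lay below the highest of WAT, at 29.0 FPKM. Skeletal muscle had 530 FPKM in estrus replicate 1 and 70.3 to 158 FPKM in the other 5 libraries. Aorta had 24.7 FPKM in estrus replicate 1, the library with few adipocyte genes, and 127 to 384 FPKM in the other 5. The summed adipocyte genes of those 5 stood at 2249 to 2590 FPKM, beside 1748 to 2566 FPKM in BAT. The part of fat in the aorta level was not tested.

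Cdkn1a, the cyclin-dependent kinase inhibitor p21, was highest in duodenum and stomach. Its mean level was 142 ± 38.0 FPKM in duodenum, 100.2 ± 33.6 FPKM in stomach, 68.9 ± 33.1 FPKM in BAT, 41.2 ± 17.3 FPKM in aorta, 29.6 ± 15.2 FPKM in ovary, 25.9 ± 14.1 FPKM in heart, 22.6 ± 3.72 FPKM in vein and 18.5 ± 4.74 FPKM in WAT. It was 21.8 ± 15.0 FPKM in uterus, 17.3 ± 8.94 FPKM in skeletal muscle, 13.8 ± 3.86 FPKM in cerebrum, 11.1 ± 2.44 FPKM in hypothalamus, 8.82 ± 1.35 FPKM in spleen, 7.97 ± 5.10 FPKM in kidney and 3.26 ± 4.26 FPKM in liver. All neighbours overlapped. The mean of liver leaned on estrus replicate 1, with 11.9 FPKM against 1.07 to 2.13 FPKM in the other 5 libraries.

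Mt1 was abundant in 13 tissues and low in spleen and skeletal muscle. Its mean level was 729 ± 206 FPKM in BAT, 523 ± 182 FPKM in uterus, 506 ± 135 FPKM in ovary, 424 ± 85.0 FPKM in hypothalamus, 414 ± 147 FPKM in stomach, 357 ± 71.4 FPKM in aorta, 329 ± 58.3 FPKM in kidney and 314 ± 56.7 FPKM in cerebrum. It was 303 ± 68.7 FPKM in heart, 354 ± 238 FPKM in liver, 283 ± 138 FPKM in duodenum, 203 ± 77.3 FPKM in vein, 182 ± 53.6 FPKM in WAT, 38.3 ± 12.3 FPKM in spleen and 28.5 ± 12.0 FPKM in skeletal muscle. The step from WAT to spleen was free of overlap (exact permutation p = 0.00216). Mt2, its neighbour on the chromosome with a closely similar coding sequence, averaged 581 ± 427 FPKM in uterus, 424 ± 250.5 FPKM in stomach, 288 ± 121 FPKM in ovary, 236 ± 53.5 FPKM in hypothalamus, 203 ± 27.7 FPKM in BAT, 171 ± 41.5 FPKM in cerebrum, 119.6 ± 21.0 FPKM in kidney and 145 ± 122 FPKM in liver. It was 112 ± 53.8 FPKM in aorta, 100.2 ± 71.2 FPKM in duodenum, 82.4 ± 49.9 FPKM in WAT, 65.1 ± 23.8 FPKM in vein, 43.9 ± 13.3 FPKM in heart, 25.9 ± 12.0 FPKM in spleen and 13.8 ± 7.86 FPKM in skeletal muscle. They are near copies, so reads that fit both may have been shared out between them by the abundance estimate, and the level of each is to that extent uncertain.

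The ratio of Mt2 to Mt1 differed between tissues. It was lowest in heart, with a mean of 0.162 ± 0.0504 in estrus and 0.131 ± 0.0209 in diestrus (SD, n = 3 each), and highest in the uterus in diestrus, with 1.43 ± 0.252. In uterus the 3 ratios were 0.387, 0.992 and 0.429 in estrus and 1.15, 1.64 and 1.51 in diestrus, without overlap. In ovary they were 0.674, 0.632 and 0.627 in estrus and 0.443, 0.510 and 0.442 in diestrus, again without overlap but in the other direction. Duodenum, with 0.320, 0.182 and 0.246 in estrus and 0.426, 0.422 and 0.352 in diestrus, had no overlap either and went the way of uterus. In all other tissues the ratios of the phases overlapped, and no ratio was tested. Stomach was the only other tissue with a mean ratio above 1, at 1.11 ± 0.218 in estrus.

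The main comparison of the study asked how estrus differs from diestrus in each tissue. Values were compared as log2(FPKM + 1) with limma in each tissue on its own, over every gene that averaged 1 FPKM or more there. A call required an adjusted p no higher than 0.05 and a difference of 1 or more on the log2 scale, whatever its sign. Fold changes are positive where estrus was higher and understate the change of low genes. Of the 120 pairs of a gene and a tissue, 119 passed the filter (Zbtb16 in duodenum did not), and limma called 0 of them. Over all genes the same rule made 2 calls among 185469 tests (0.00108%). At an unadjusted p of 0.05, 26 of the 119 pairs passed (21.8%, against 7.84% of all tests), and the lowest adjusted p was 0.0991, for Zbtb16 in skeletal muscle. With 3 libraries against 3, an exact permutation test of 1 gene cannot give a p below 0.1. In 24 of the 119 pairs the phases did not overlap (20.2%), where all genes gave 15.0%. Estrus was higher in 19 of the 24 and lower in 5. The 8 genes were chosen with earlier results of these data known. By the study's account the tissues share mice, so the shares beside all genes are a description. The scale turned the sign of small differences only: rescaling to TPM did so in 8 pairs and rescaling to the upper quartile in 3, none with a fold change above 0.13 in size. Larger differences kept their sign but moved in size. With the upper quartile, Zbtb16 in skeletal muscle went from -1.07 to -0.96 (limma adjusted p = 0.126). The median fold change of all genes lay at -0.16 in duodenum and -0.12 in BAT, and within 0.1 of 0 in the other tissues.

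**Figure D2:**
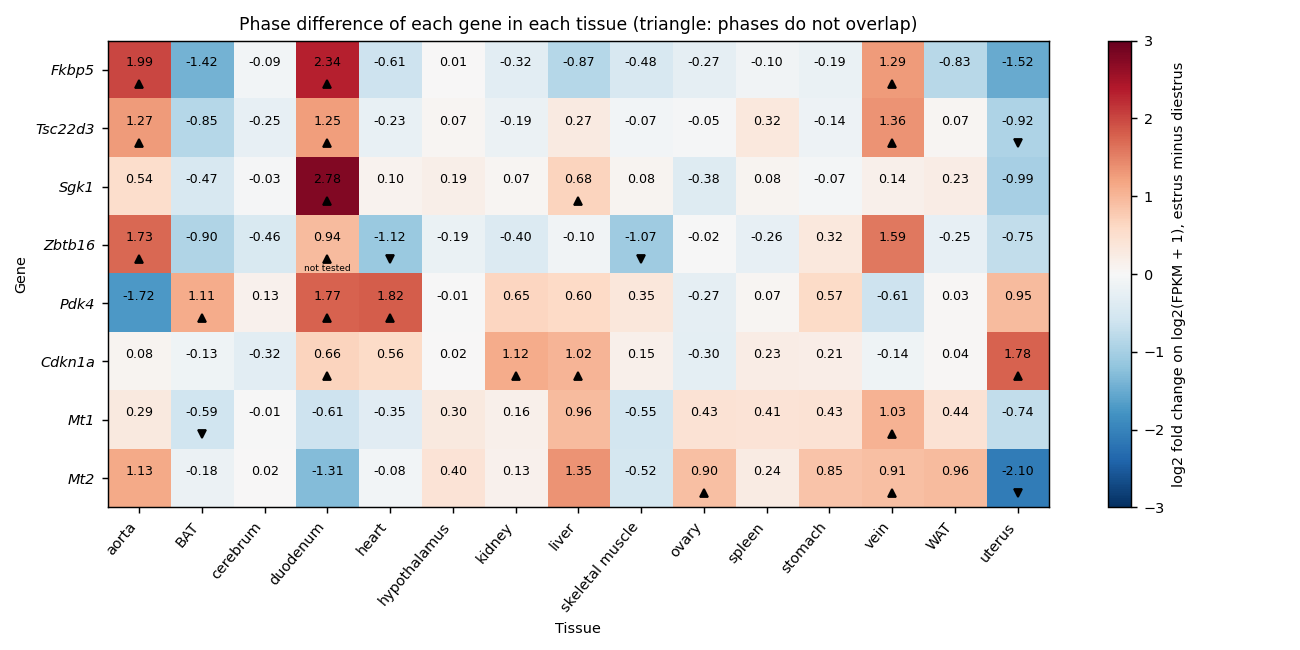
Log2 fold change on log2(FPKM + 1) between estrus and diestrus (red: higher in estrus, blue: lower) for 8 genes in 15 tissues, with a triangle where the 3 libraries of a phase lie wholly above or below those of the other. Duodenum holds the largest values, up to 2.78 for Sgk1, and the lowest is -2.10 for Mt2 in uterus.

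Duodenum had the most pairs without overlap. Of the 7 genes tested there, 5 lay wholly higher in estrus, where 4.51% of all genes did, and the median fold change of the 7 was 1.25. Fkbp5 was at 18.4, 23.4 and 22.9 FPKM in the 3 estrus libraries and 4.29, 3.31 and 2.84 FPKM in the 3 diestrus libraries. That was a log2 fold change of 2.34 (SE 0.20, limma adjusted p = 0.109), and 2.50 above the median of all genes there. Every estrus value was more than 4 times the highest diestrus value. Sgk1 was at 43.1, 141 and 137 FPKM in the 3 estrus libraries and 12.5, 23.1 and 7.23 FPKM in the 3 diestrus libraries. It had a log2 fold change of 2.78 (SE 0.56, limma adjusted p = 0.368), the largest of the 8 genes in any tissue. Estrus replicate 1 was the lowest estrus library and still above all diestrus libraries.

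Pdk4 in duodenum was at 8.34, 10.3 and 12.1 FPKM in the 3 estrus libraries and 2.59, 2.32 and 1.91 FPKM in the 3 diestrus libraries. It had a log2 fold change of 1.77 (SE 0.20, limma adjusted p = 0.364). Its level in this tissue was low beside muscle and BAT. Tsc22d3 was at 45.1, 48.3 and 67.4 FPKM in the 3 estrus libraries and 18.4, 25.3 and 21.5 FPKM in the 3 diestrus libraries. It had a log2 fold change of 1.25 (SE 0.21, limma adjusted p = 0.368). Cdkn1a, highest of all tissues here, was at 163, 194 and 166 FPKM in the 3 estrus libraries and 92.3, 115 and 124 FPKM in the 3 diestrus libraries. Its difference was a log2 fold change of 0.66 (SE 0.18, limma adjusted p = 0.368), smaller than those of the other four. Zbtb16, not tested, was at 2.81, 1.01 and 0.800 FPKM in the 3 estrus libraries and 0.230, 0.260 and 0.260 FPKM in the 3 diestrus libraries, also without overlap. Mt1 and Mt2 went the other way. Mt1 was at 328, 197 and 137 FPKM in the 3 estrus libraries and 497, 365 and 175 FPKM in the 3 diestrus libraries, with overlap, and Mt2 at 105, 35.8 and 33.6 FPKM in the 3 estrus libraries and 211, 154 and 61.5 FPKM in the 3 diestrus libraries, with a log2 fold change of -1.31. Without the libraries of estrus replicate 1, whose duodenum library had the high smooth muscle genes, the fold change was 2.44 for Fkbp5 and 3.33 for Sgk1.

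In aorta 3 of the 8 genes lay wholly higher in estrus, against 2.39% of all genes. Fkbp5 was at 18.9, 6.40 and 18.9 FPKM in the 3 estrus libraries and 2.55, 2.10 and 3.19 FPKM in the 3 diestrus libraries, which gave a log2 fold change of 1.99 (SE 0.41, limma adjusted p = 0.933). Estrus replicate 2 was the lowest of the estrus libraries, and the other two were nearly equal. Tsc22d3 was at 26.7, 47.8 and 62.6 FPKM in the 3 estrus libraries and 15.0, 16.9 and 20.3 FPKM in the 3 diestrus libraries, a log2 fold change of 1.27 (SE 0.32, limma adjusted p = 0.933). Zbtb16 was at 31.6, 5.20 and 18.2 FPKM in the 3 estrus libraries and 4.31, 3.13 and 3.84 FPKM in the 3 diestrus libraries, a log2 fold change of 1.73 (SE 0.59, limma adjusted p = 0.933). Its estrus values spread widely, from just above the diestrus libraries to 31.6 FPKM in the library with the high smooth muscle genes. Without estrus replicate 1 the fold changes were 1.76, 1.61 and 1.21 for Fkbp5, Tsc22d3 and Zbtb16, in the same direction. Pdk4 in aorta was at 24.7, 358 and 127 FPKM in the 3 estrus libraries and 325, 384 and 338 FPKM in the 3 diestrus libraries. The low values were those of estrus replicates 1 and 3, the groups overlapped, and a log2 fold change of -1.72 (SE 0.91, limma adjusted p = 0.933) was found. In estrus replicate 1, where Pdk4 was lowest, the adipocyte genes were lowest too; their part in the value was not tested. Mt2 had a fold change of 1.13 with overlapping phases.

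Vein had 4 genes wholly higher in estrus, where 5.28% of all genes were. Mt1 was at 273, 284 and 262 FPKM in the 3 estrus libraries and 142, 145 and 114 FPKM in the 3 diestrus libraries. It had a log2 fold change of 1.03 (SE 0.13, limma adjusted p = 0.28), with tight replicates in both phases. Mt2 was at 74.0, 84.2 and 96.7 FPKM in the 3 estrus libraries and 34.8, 45.2 and 55.8 FPKM in the 3 diestrus libraries, a log2 fold change of 0.91 (SE 0.19, limma adjusted p = 0.412). Tsc22d3 was at 65.3, 37.1 and 97.1 FPKM in the 3 estrus libraries and 18.9, 28.5 and 24.2 FPKM in the 3 diestrus libraries, a log2 fold change of 1.36 (SE 0.34, limma adjusted p = 0.412). Fkbp5 was at 9.42, 14.1 and 26.4 FPKM in the 3 estrus libraries and 6.08, 4.61 and 6.46 FPKM in the 3 diestrus libraries, a log2 fold change of 1.29 (SE 0.33, limma adjusted p = 0.412). The estrus values of Fkbp5 ranged almost 3-fold while those of diestrus lay close together. Zbtb16, at 4.68, 25.1 and 17.6 FPKM in the 3 estrus libraries and 3.47, 2.99 and 4.73 FPKM in the 3 diestrus libraries, missed separation because estrus replicate 1 was just below the highest diestrus library. The summed smooth muscle genes of vein overlapped between phases (1421 to 3177 FPKM in estrus and 1853 to 4380 FPKM in diestrus), and so did the adipocyte genes (2817 to 4754 and 1685 to 3399 FPKM).

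In uterus the summed smooth muscle genes stood at 4106 FPKM in estrus replicate 1 and at 923 to 2694 FPKM in the other 5 libraries. There 1 gene lay wholly higher in estrus (3.24% of all genes) and 2 lay wholly lower (4.67% of all genes). Mt2 was at 107, 322 and 266 FPKM in the 3 estrus libraries and 653, 1206 and 932 FPKM in the 3 diestrus libraries. It had a log2 fold change of -2.10 (SE 0.45, limma adjusted p = 0.897), the lowest fold change of the 8 genes, and without the libraries of estrus replicate 1 it was -1.62. The lowest diestrus library held more than 2 times the FPKM of the highest estrus library. Tsc22d3 was at 19.3, 28.4 and 24.5 FPKM in the 3 estrus libraries and 30.3, 66.7 and 47.6 FPKM in the 3 diestrus libraries, a log2 fold change of -0.92 (SE 0.34, limma adjusted p = 0.897). Cdkn1a was at 29.4, 26.2 and 44.9 FPKM in the 3 estrus libraries and 18.4, 6.31 and 5.68 FPKM in the 3 diestrus libraries, a log2 fold change of 1.78 (SE 0.46, limma adjusted p = 0.897). Fkbp5 was at 1.04, 7.70 and 4.78 FPKM in the 3 estrus libraries and 18.9, 7.35 and 13.7 FPKM in the 3 diestrus libraries, and 1 estrus library lay within the diestrus range, a log2 fold change of -1.52 (SE 0.58, limma adjusted p = 0.897). Mt1 stood at 275, 324 and 619 FPKM in the 3 estrus libraries and 566, 735 and 618 FPKM in the 3 diestrus libraries and overlapped. The fold changes of Fkbp5 and Tsc22d3 were thus below 0 in uterus and above 0 in duodenum, aorta and vein.

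**Figure D3:**
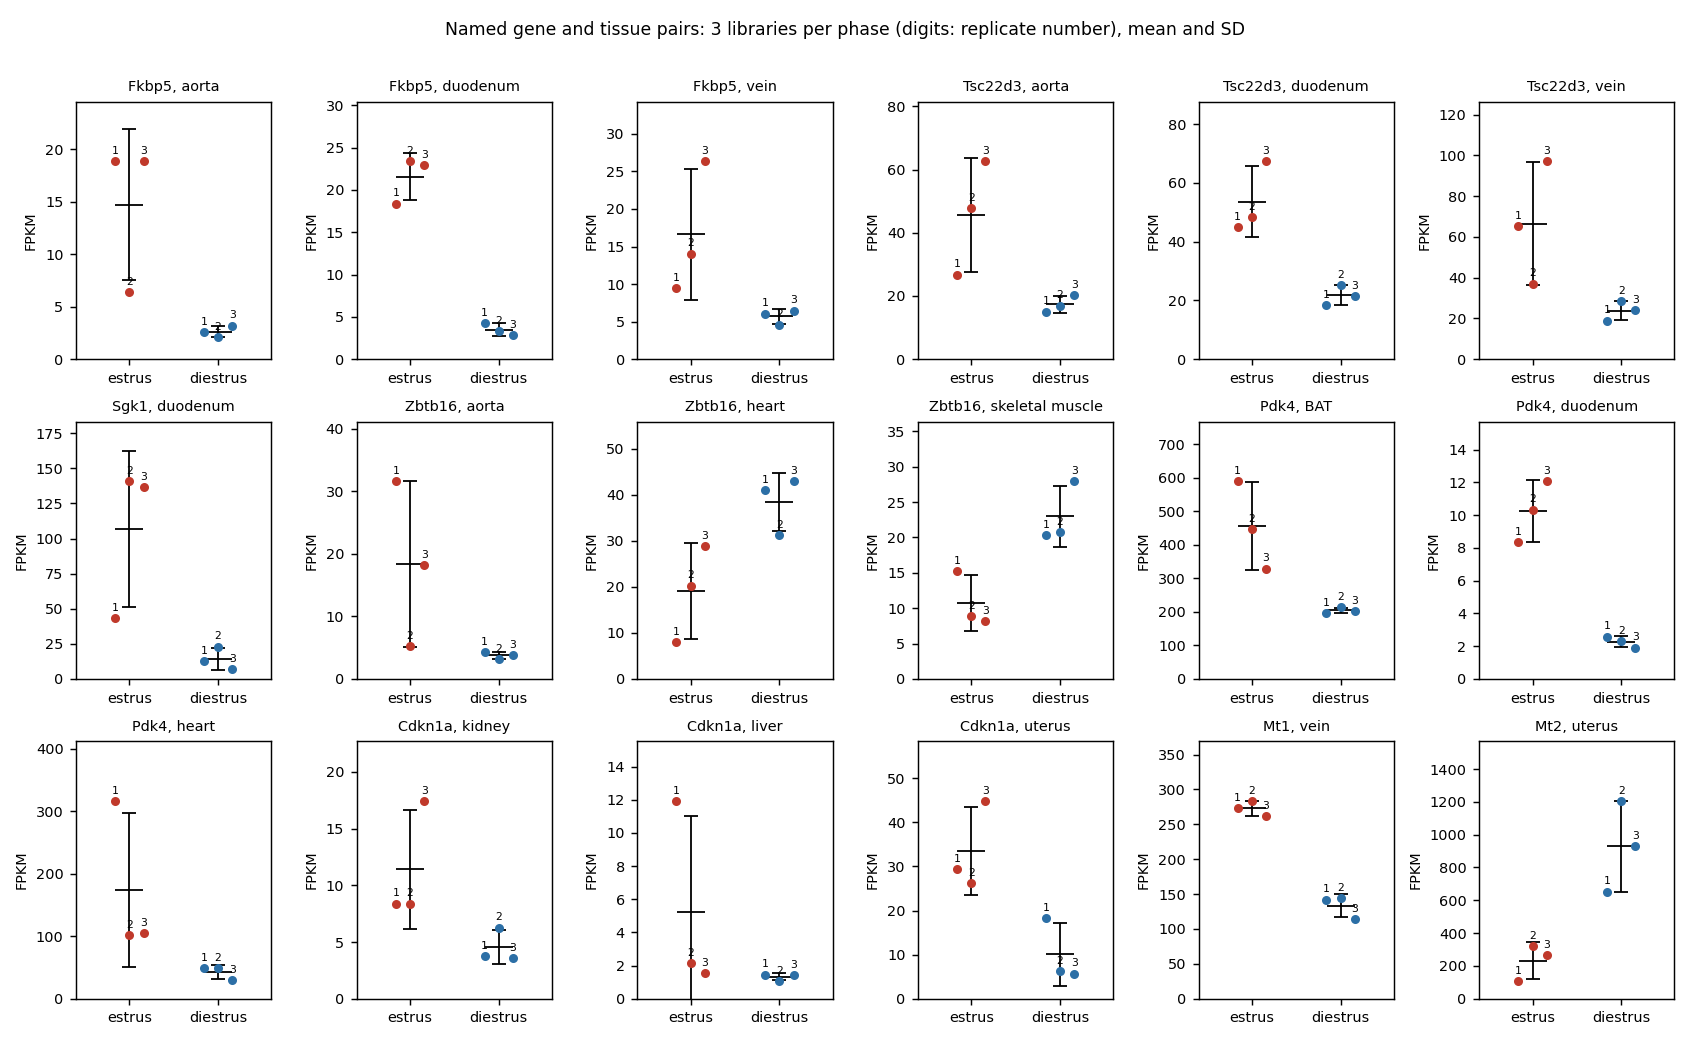
FPKM of the 3 estrus (red) and 3 diestrus (blue) libraries, with replicate numbers as digits and mean and SD as black lines, for the 18 pairs of a gene and a tissue that either lacked overlap with a fold change of at least 1 or were the largest of their gene. Fkbp5 in duodenum ranges from 18.4 to 23.4 FPKM in estrus and from 2.84 to 4.29 FPKM in diestrus, and the SD line of Cdkn1a in liver runs below 0 and is cut at the axis.

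In heart and BAT the gene that lay wholly higher in estrus was Pdk4. In heart Pdk4 was at 317, 101 and 104 FPKM in the 3 estrus libraries and 49.1, 49.1 and 29.8 FPKM in the 3 diestrus libraries, a log2 fold change of 1.82 (SE 0.42, limma adjusted p = 0.789). Estrus replicate 1 was 3 times the other two, and without the libraries of that number the fold change was 1.29. Higher values without overlap were found for 7.91% of all genes in heart and lower values for 3.84%. Zbtb16 in heart was lower in estrus, at 8.08, 20.2 and 28.9 FPKM in the 3 estrus libraries and 41.0, 31.3 and 43.0 FPKM in the 3 diestrus libraries, a log2 fold change of -1.12 (SE 0.38, limma adjusted p = 0.793), and -0.63 without the libraries of estrus replicate 1. Fkbp5 in heart had a fold change of -0.61 with overlap. In BAT Pdk4 was at 591, 448 and 329 FPKM in the 3 estrus libraries and 198, 214 and 203 FPKM in the 3 diestrus libraries, a log2 fold change of 1.11 (SE 0.21, limma adjusted p = 0.192). Higher values without overlap were common in BAT, at 12.0% of all genes. Mt1 in BAT was lower, at 560.0, 559.9 and 606 FPKM in the 3 estrus libraries and 997, 669.5 and 981 FPKM in the 3 diestrus libraries, a log2 fold change of -0.59 (SE 0.17, limma adjusted p = 0.255), where 18.1% of all genes were lower without overlap. The summed skeletal muscle fibre genes in BAT were at 1087, 1211 and 843 FPKM in estrus and at 237, 22.3 and 4617 FPKM in diestrus, and the smooth muscle genes at 36.2 to 48.0 FPKM and 61.4 to 83.6 FPKM. Their part in the BAT values was not tested. Fkbp5 in BAT was at 2.75, 2.71 and 0 FPKM in the 3 estrus libraries and 9.33, 1.87 and 7.98 FPKM in the 3 diestrus libraries, the 0 being that of the library with few detected genes, and overlapped.

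Skeletal muscle, kidney and ovary had 1 pair each without overlap, and liver had 2. Zbtb16 in skeletal muscle was at 15.2, 8.83 and 8.13 FPKM in the 3 estrus libraries and 20.3, 20.7 and 28.0 FPKM in the 3 diestrus libraries, a log2 fold change of -1.07 (SE 0.23, limma adjusted p = 0.0991). All diestrus libraries lay above 20 FPKM, but 21.9% of all genes in this tissue were lower in estrus without overlap. Cdkn1a in kidney was at 8.39, 8.39 and 17.4 FPKM in the 3 estrus libraries and 3.74, 6.27 and 3.61 FPKM in the 3 diestrus libraries, a log2 fold change of 1.12 (SE 0.29, limma adjusted p = 1), where 4.25% of all genes were higher without overlap. In liver, with 4.48% of all genes higher without overlap, Sgk1 and Cdkn1a were. Sgk1 there was at 11.3, 11.1 and 16.8 FPKM in the 3 estrus libraries and 9.79, 6.03 and 7.56 FPKM in the 3 diestrus libraries, a log2 fold change of 0.68 (SE 0.21, limma adjusted p = 0.811). Cdkn1a was at 11.9, 2.13 and 1.55 FPKM in the 3 estrus libraries and 1.46, 1.07 and 1.43 FPKM in the 3 diestrus libraries, a log2 fold change of 1.02 (SE 0.57, limma adjusted p = 0.811). The size of the latter depended on estrus replicate 1, without which it fell to 0.29. Mt2 in ovary was at 492, 357 and 283 FPKM in the 3 estrus libraries and 186, 175 and 234 FPKM in the 3 diestrus libraries, a log2 fold change of 0.90 (SE 0.22, limma adjusted p = 0.747), where 8.13% of all genes were higher without overlap. Cerebrum, hypothalamus, spleen, stomach and WAT had no pair without overlap, and the largest fold change among their 40 pairs was 0.96, for Mt2 in WAT, followed by 0.85 for Mt2 in stomach. In WAT Mt2 was highest in estrus replicate 1, at 172 FPKM against 32.8 to 94.5 FPKM in the other 5 libraries, and the summed smooth muscle genes stood at 2409 FPKM there against 88.8 to 244 FPKM. In stomach these genes stood at 4559 FPKM in estrus replicate 1 and at 231 to 1614 FPKM in the others, while Mt2 was highest in estrus replicate 3.

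Liver metallothioneins varied widely within both phases. Mt1 in liver was at 606, 135 and 637 FPKM in the 3 estrus libraries and 289, 61.2 and 399 FPKM in the 3 diestrus libraries, and Mt2 at 238, 61.0 and 348 FPKM in the 3 estrus libraries and 88.1, 32.5 and 104 FPKM in the 3 diestrus libraries. Replicate 2 was the lowest of both phases for both genes. Their fold changes of 0.96 and 1.35 came with overlapping phases and limma adjusted p of 0.854 and 0.811.

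A fit of all 90 libraries with a contrast for each tissue, which shares the spread over tissues, called 12 of the 120 pairs, against 1.14% of all genes by tissue. These were Fkbp5, Tsc22d3 and Zbtb16 in aorta, Fkbp5, Tsc22d3, Sgk1 and Pdk4 in duodenum, Tsc22d3 in vein and Cdkn1a in uterus, all higher, and Fkbp5 in BAT and uterus and Mt2 in uterus, all lower. Without BAT estrus replicate 3, in which Fkbp5 is listed at 0, the same fit called 11 pairs. Fkbp5 in BAT was then at -0.79 (limma adjusted p = 0.583) and was not among them. The lowest limma adjusted p over all 90 libraries was 4.65e-06, for Sgk1 in duodenum. This fit treats all libraries as independent, although tissues were taken from the same mice.

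Averages of each phase and replicate number over the 15 tissues give 6 values, which are independent of each other where a number marks the same mouse in every tissue. They asked whether a gene differed between phases in the body as a whole. limma called 0 of the 15226 genes in these 6 averages (0.0%), of which 1109 passed at an unadjusted p of 0.05. Among the 8 genes, 3 did. Sgk1 averaged 5.28, 5.32 and 5.48 in estrus and 5.21, 5.19 and 5.08 in diestrus on the log2(FPKM + 1) scale, and Cdkn1a averaged 4.91, 4.48 and 4.49 against 4.47, 4.19 and 4.21. Both lay wholly higher in estrus, as 2.66% of all genes did, with log2 fold changes of 0.20 (SE 0.06) and 0.33 (SE 0.13). Pdk4 averaged 4.45, 4.13 and 3.88 against 3.88, 3.79 and 3.70, with a fold change of 0.36 (SE 0.13), and its lowest estrus average lay just below the highest of diestrus. All 3 had a limma adjusted p of 0.682. Without the libraries of estrus replicate 1 the fold changes of Cdkn1a and Pdk4 were 0.19 and 0.21, and that of Sgk1 was 0.33 without ovary and uterus. The fold changes of the other genes were -0.07 for Fkbp5, -0.06 for Zbtb16, 0.13 for Tsc22d3, 0.11 for Mt1 and 0.18 for Mt2. Fkbp5 was higher in estrus in 4 tissues and lower in 11, which is how large differences came to an average near 0.

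Whether the phase difference of a gene differed between tissues was tested directly, by an F test on the 14 contrasts between tissues in the fit of all libraries. This test was added after the values had been seen. It was passed by 591 of 15226 genes (3.88%) and by 5 of the 8 genes, Fkbp5 (limma adjusted p = 0.000875), Tsc22d3 (0.00246), Sgk1 (0.00849), Zbtb16 (0.0144) and Mt2 (0.0147). Pdk4 (0.0674), Mt1 (0.257) and Cdkn1a (0.318) did not pass. The number of the 8 that passed was 1 without the libraries of diestrus replicate 1, 3 without those of diestrus replicate 2, 2 without those of diestrus replicate 3 and 3 without those of estrus replicate 3. The shares of all genes that passed were 0.951%, 0.840%, 0.636% and 7.08% in the same settings. For Fkbp5 the adjusted p ranged from 7.7e-05 to 0.175 over these and the other alternatives.

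The 90 libraries were then described by where their variation lay. Of the sum of squares of log2(FPKM + 1), tissues held 91.6% in the median gene, phases within a tissue 1.93% and libraries within a group 6.27%. For Tsc22d3 these shares were 60.5%, 20.1% and 19.3%, and for Fkbp5 67.1%, 17.3% and 15.5%. The share between phases placed both genes above 99% of the 15226 genes. Sgk1 had 14.5% between phases, Zbtb16 9.78%, Mt2 9.27%, Cdkn1a 5.10%, Mt1 4.20% and Pdk4 3.64%. The last of these was close to a typical gene in its share between tissues (91.2%). All 8 genes had a larger share between phases than the median gene, and all but Pdk4 (5.16%) a larger share between libraries of a group.

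**Figure D4:**
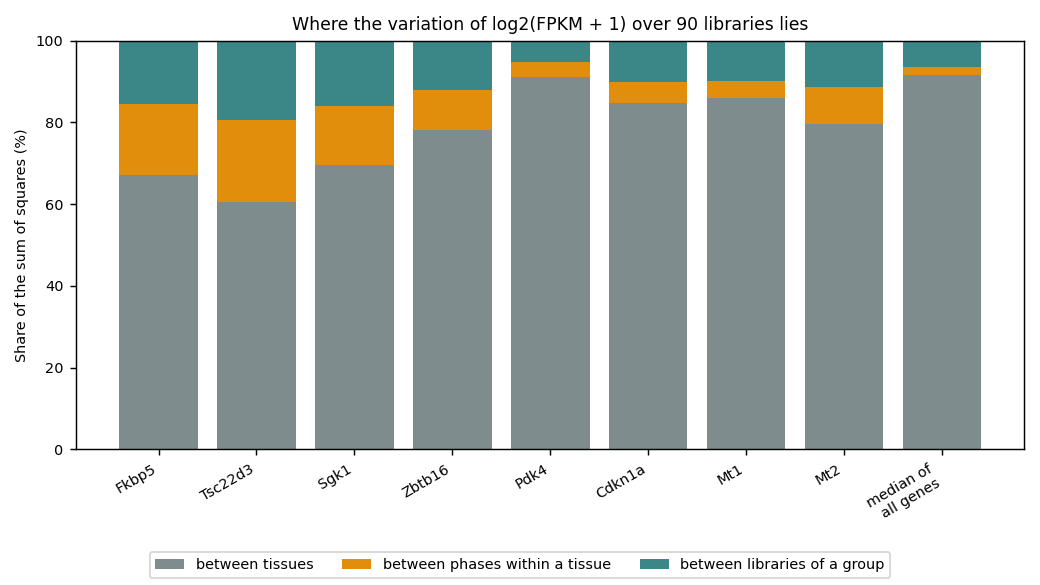
Share of the sum of squares of log2(FPKM + 1) over 90 libraries (percent) that lies between tissues, between phases within a tissue and between libraries of a group, for the 8 genes and, as the 3 medians, for all 15226 genes. Tsc22d3 and Fkbp5 have the smallest shares between tissues, 60.5% and 67.1%, and the median gene has 91.6%.

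Libraries of the same number moved together in Fkbp5. Within the diestrus groups replicate 2 was the lowest of 3 in 12 of the 15 tissues, the exceptions being duodenum, hypothalamus and WAT, and it was highest in 0. Among all genes 0.0657% had diestrus replicate 2 lowest in 12 or more tissues. The deviations from the group mean, averaged over tissues, were -0.45 for diestrus replicate 2 and 0.20 and 0.25 for replicates 1 and 3. In estrus they were -0.04, -0.23 and 0.27. The share of the variation within groups that followed the number was 26.9% for Fkbp5 and 26.0% for Tsc22d3, against 7.80% for the median gene. Tsc22d3 had its low averages in estrus replicate 1 (-0.20) and diestrus replicate 2 (-0.16), and its high ones in replicate 3 of both phases (0.21 and 0.24). Mt1 followed with 15.2%, Zbtb16 with 14.8%, Cdkn1a with 13.2%, Pdk4 with 9.63%, Mt2 with 8.64% and Sgk1 with 3.08%. Mt1, like Fkbp5, was low in replicate 2 of both phases (-0.22 and -0.24). Replicate 2 of both phases also had the lowest averages of Mt2 (-0.24 and -0.15) and Zbtb16 (-0.14 and -0.29). For Cdkn1a it was lowest by a small margin (-0.15 and -0.10).

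The deviations from the group means were compared between genes over the 90 libraries, which share mice and depth, so that r is a description only. Mt1 and Mt2 had r = 0.81, and no other gene was closer to either. Fkbp5 had r = 0.52 with Zbtb16 and 0.52 with Tsc22d3, 0.43 with Mt1 and 0.36 with Cdkn1a. Pdk4 had r between -0.15 and 0.27 with each of the other 7 genes. Among all 15226 genes, those closest to Fkbp5 were Mfsd2a (0.61), a lipid transporter, Wee1 (0.59), a kinase that delays mitosis, and Map3k6 (0.58). Closest to Tsc22d3 were Ddit4 (0.60), a known glucocorticoid target that restrains mTOR, Cry1 (0.56), a clock repressor, and Slc6a6 (0.55), the taurine transporter. Zbtb16 was followed by Angptl7 (0.53), Fkbp5 (0.52) and Ntrk3 (0.52). Sgk1 was followed by Sowahb (0.61), Tmem221 (0.59) and Lgi3 (0.56), with Spearman's rho of only 0.19, 0.39 and 0.33, well below r.

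Pdk4 was followed by Acadm (0.66), Etfdh (0.66) and Ech1 (0.64), all enzymes of mitochondrial fatty acid oxidation. Cdkn1a was followed by Wsb1 (0.53), Maff (0.53) and Jrkl (0.53). After each other, the closest to Mt1 were Cux2 (0.53) and Apcs (0.50), and to Mt2 Cd44 (0.53) and Marcksl1 (0.50). Over the 15 tissue means the closest genes were others. Pdk4 was followed by Cox8b (r = 0.96), Cpt1b (0.93) and Ucp3 (0.93), genes of muscle and brown fat mitochondria. Mt1 was closest to Mt2 (0.87), then Chid1 (0.85) and Cdc42bpb (0.80), and Mt2 to Mt1, Chid1 (0.83) and Shtn1 (0.80). Fkbp5 was closest to Lama1 (0.89), Slc24a5 (0.89) and Ccbe1 (0.88) (Spearman's rho 0.54, 0.52 and 0.50). Tsc22d3 was closest to Abcb4 (0.75), Pnpla7 (0.74) and Prkcq (0.73), Sgk1 to Thoc7 (0.80), Myo10 (0.79) and Cux1 (0.77), Zbtb16 to St3gal3 (0.90), Ablim3 (0.87) and Cyb5d2 (0.83), and Cdkn1a to Dok4 (0.91), Klf4 (0.88), a zinc finger factor of epithelia, and Vdac2 (0.84).

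Other glucocorticoid targets were read from a list of 30 genes. In aorta 18 of the 26 tested were higher in estrus, 12 of them without overlap where 2.39% of all genes were, and their median fold change was 0.62, beside -0.05 for all genes. In duodenum 22 of 25 were higher, 6 without overlap (4.51% of all genes), with a median of 0.48 beside -0.16. In vein 19 of 26 were higher, 6 without overlap (5.28% of all genes), with a median of 0.37 beside -0.10. Some targets were high in the estrus replicate 1 libraries with high smooth muscle genes. In aorta Dusp1, a phosphatase of MAP kinases, was at 197, 38.1 and 47.6 FPKM in estrus and at 30.1 to 37.6 FPKM in diestrus. In duodenum Glul, glutamine synthetase, was at 87.7, 10.6 and 15.6 FPKM in estrus and at 15.1 to 20.8 FPKM in diestrus. The part of tissue makeup in these values was not tested. In the other tissues the median lay between -0.09 and 0.34, the latter in uterus. Per1, a clock gene with glucocorticoid response elements, was at 29.5, 46.0 and 29.6 FPKM in aorta in estrus and at 4.59, 13.5 and 6.78 FPKM in diestrus. Klf15, a factor of amino acid and glucose metabolism, was at 33.9, 35.8 and 32.8 FPKM in vein in estrus and at 16.5, 18.9 and 22.1 FPKM in diestrus. Both differed between tissues by the F test (limma adjusted p = 4.75e-05 for Per1 and 0.00672 for Klf15), as 2 of the 29 genes tested, where 3.88% of all genes did. limma called 0 of 370 pairs of these genes and tissues. In the averages over tissues 24 of 29 were higher and 0 were called, and the largest values were those of Dusp1 (0.34, SE 0.12) and Bcl6 (0.33, SE 0.15).

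The receptor and the supply of its ligand were read from 12 genes. Nr3c1, the glucocorticoid receptor, was highest in WAT (31.0 ± 3.15 FPKM) and lowest in ovary (8.36 ± 1.52 FPKM), the top tissue of Fkbp5. Hsd11b1, which regenerates active glucocorticoid, was highest in liver (428 ± 49.4 FPKM), and Hsd11b2, which inactivates it, in kidney (127 ± 31.6 FPKM). In uterus Hsd11b2 was at 7.79, 39.7 and 1.47 FPKM in estrus and at 98.2, 46.5 and 152 FPKM in diestrus, without overlap (4.67% of all genes). In duodenum it was at 1.07, 0.37 and 2.24 FPKM in estrus and at 5.02, 3.60 and 2.90 FPKM in diestrus. It was the 1 gene of this list whose phase difference differed between tissues (limma adjusted p = 0.000491). In the averages Hsd11b2 had a fold change of -0.31 (SE 0.08) and Fkbp4, the co-chaperone that favours nuclear entry of the receptor, -0.23 (SE 0.09), neither called. All 11 genes of the list tested in duodenum were lower in estrus, with a median of -0.32 beside -0.16 for all genes. Of the 11, 5 were lower without overlap, as were 2742 of the 12410 genes tested in this tissue.

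Genes of the metal response (11 listed) had medians between -0.44 in uterus and 0.53 in duodenum, beside -0.07 and -0.16 for all genes. In duodenum 8 of the 10 tested were higher in estrus, 1 of them without overlap (4.51% of all genes). Mt1 and Mt2 had fold changes below 0 in that tissue, with overlapping phases. limma called 0 of 116 pairs. In the averages the largest values were -0.20 (SE 0.06) for the zinc importer Slc39a10 and 0.16 (SE 0.17) for Mt4. Genes of the p53 response (14 listed), of which Cdkn1a is the best known member, had a median of -0.18 in uterus, -0.19 in duodenum, 0.01 in kidney and 0.06 in liver, the 4 tissues where Cdkn1a lay wholly higher in estrus, beside -0.07, -0.16, -0.01 and -0.01 for all genes, and 0 of 195 pairs were called. Their largest averages were those of Plk2 (-0.20, SE 0.05) and Aen (-0.18, SE 0.06). Genes around pyruvate dehydrogenase and fasting (14 listed) had 0 of 189 pairs called, and the average of Acot1, a thioesterase of fatty acid metabolism, was 0.38 (SE 0.18). For 10 tested acute phase genes the largest averages were those of Lcn2 (0.51, SE 0.20) and Hp (0.30, SE 0.18), and for 8 immediate early genes Fos (0.28, SE 0.13) and Nr4a1 (0.25, SE 0.12), again with 0 calls. By the F test Lcn2 (limma adjusted p = 0.0447), Saa2 (3.73e-05) and Pdp2 (0.017), which reactivates pyruvate dehydrogenase, differed between tissues. The lists of adipocytes, skeletal muscle fibres and smooth muscle gave no call either. Their largest averages were those of Adipoq (0.15) and Cidec (0.12), Acta1 (-0.31) and Tnnt3 (-0.20), and Tagln (0.27) and Myh11 (0.25).

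Genes of the daily clock were set beside the glucocorticoid targets. For 9 genes of the Dbp phase, which peak together in the daily cycle, the median fold change was 1.11 in aorta, 1.24 in duodenum and 1.10 in vein, and 9 of 9, 7 of 8 and 9 of 9 genes were higher in estrus. It was -1.13 in liver, -0.84 in kidney and -0.83 in heart. Per2 was at 17.8, 15.8 and 17.0 FPKM in vein in estrus and at 1.28, 11.4 and 4.96 FPKM in diestrus. Across the 15 tissues the fold change of Fkbp5 had the sign of this median in 13, and that of Zbtb16 in 13. The count was 10 for Tsc22d3, 8 for Mt1, 7 for Sgk1, 7 for Mt2, 4 for Cdkn1a and 2 for Pdk4. For Zbtb16 it includes duodenum, where the gene was not tested, and the same count over all genes is not given here. The tissues come from the same mice, so these counts are a description. Ciart and Per2 were among the genes whose phase difference differed between tissues (limma adjusted p = 0.0137 and 0.026). The largest averages of the list were -0.42 (SE 0.31) for Ciart and -0.16 (SE 0.43) for Dbp, and those of 5 genes of the Bmal1 phase -0.17 for Nfil3 and -0.08 for Cry1. By replicate number, the deviations of the Dbp phase averaged -0.43, 0.02 and 0.41 in estrus and -0.13, -0.05 and 0.18 in diestrus, beside -0.20, -0.01 and 0.21 in estrus and -0.08, -0.16 and 0.24 in diestrus for Tsc22d3. Those of Fkbp5 had their low point in diestrus replicate 2. The part of the daily clock in the differences between phases was not tested.

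**Figure D5:**
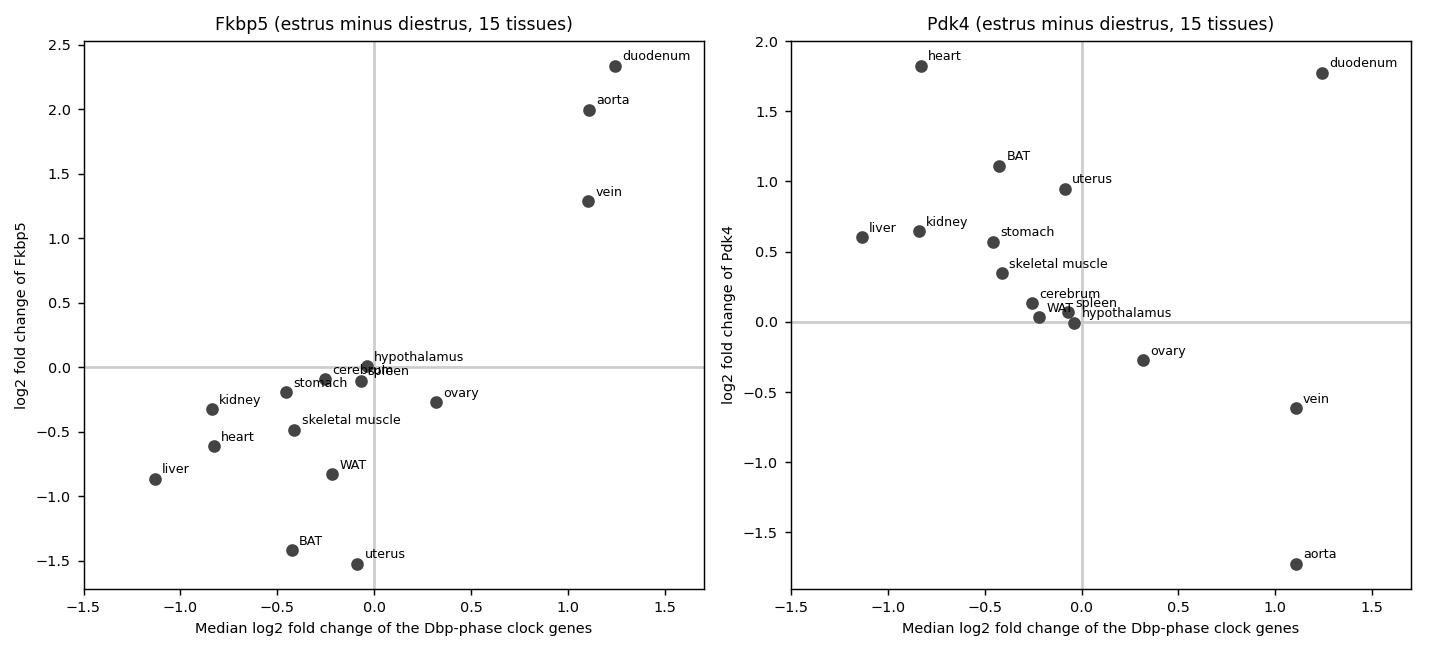
Log2 fold change between estrus and diestrus of Fkbp5 (left) and Pdk4 (right) in 15 tissues, against the median fold change of the Dbp-phase clock genes in the same tissue (9 listed). Duodenum, aorta and vein lie at the upper right for Fkbp5. For Pdk4 aorta and vein lie below 0 and heart and duodenum above it, with duodenum at 1.77. The other genes are not shown.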

How the data were processed

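The study sequenced RNA of 15 tissues of mice in estrus and diestrus. Per the labels, the authors aligned reads with Bowtie2 2.2.5 and estimated abundance with RSEM 1.2.8 on GRCm38.p5, and per the study's methods they filtered reads with SOAPnuke first. They deposited FPKM for 20414 genes, without counts, so the depth behind a value is unknown and precision rests on the 3 libraries per group. Symbols came from RefSeq GRCm38.p6, which named 20265 identifiers, and promoter windows from the same build.

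Groups and replicate numbers were taken from the labels. The authors' own test, DEGSeq, works on read counts and was not used here. The tests used log2(FPKM + 1), a filter at a mean of 1 FPKM, and limma 3.58.1 (R 4.3.3) with an intensity trend, no block and Benjamini-Hochberg adjustment. A pair was called at an adjusted p of at most 0.05 and a log2 fold change of at least 1, while averages over tissues and the F test used the adjusted p alone. Exact permutation tests, shares of sums of squares and correlations were computed in Python 3.11.15 with numpy 2.4.6 and pandas 2.3.3, and plots with matplotlib 3.10.9. The limma steps were tested on simulated data. The 8 genes, the gene lists and the tests were chosen with earlier results of these data known.

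Genes named are the 8; the pairs called, or without overlap at a fold change of at least 1, or largest of their gene; the 3 genes closest to each by Pearson's r; and, of each list, called genes and the 2 largest averages, of which 1 gene is not reported here. Other genes of the lists and other pairs were named after their values were seen. Over all genes, same-numbered libraries of the 2 phases did not deviate together within a tissue (r from -0.52 to 0.44, and in 0 of 15 tissues were all 3 above 0.1). The numbers were therefore not used as pairs in the main tests. This check does not speak for single genes. Fkbp5, Zbtb16, Mt1 and Mt2 averaged lowest in replicate 2 of both phases, and so did Cdkn1a by a small margin. By the study's account the 3 libraries of a group came from separate mice. Alternatives covered the pseudocount, the filter, the scale, the replicate block, libraries left out, and 1 fit of all tissues.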

Additional observations from a re-analysis of the deposited data

Results flagged for a closer look

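The difference between estrus and diestrus was not the same in all tissues for 5 of the 8 genes, by the F test on contrasts between tissues in 1 limma fit of 90 libraries. The limma adjusted p was 0.000875 for Fkbp5, 0.00246 for Tsc22d3, 0.00849 for Sgk1, 0.0144 for Zbtb16 and 0.0147 for Mt2. The test treats tissues of the same mice as independent and was added after the values had been seen. With 1 replicate number left out at a time, 1 to 6 of the 8 genes passed, the fewest without diestrus replicate 1, while the share of all genes that passed ran from 0.636% to 30.6%. Fkbp5 was higher in estrus in duodenum, aorta and vein and lower in uterus, and Mt2 was lower in uterus and higher in vein and ovary. Groups of 3 libraries are too small for a check of single outlying samples.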

How the results depend on the processing

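With 1 fit of all 90 libraries limma called 12 of the 120 pairs, and 11 without BAT estrus replicate 3, an alternative chosen after seeing the data, where fits by tissue called 0, and leaving out each replicate number in turn gave 0 to 3 calls. The 3 came without estrus replicate 1: Fkbp5 and Pdk4 in duodenum and Zbtb16 in skeletal muscle. The share of all genes called by tissue in that setting is not given here. By the F test a larger share of all genes passed there than in the main fit. Whether the 3 calls exceed those of all genes was therefore not tested. For the averages over tissues, the fold change of Fkbp5 (-0.07) was 0.054 without ovary and uterus and 0.023 without BAT, and -0.30 to 0.052 with a replicate left out. That of Zbtb16 (-0.06) was 0.00076 with a pseudocount of 0.1 and -0.21 to 0.070 with a replicate left out, and that of Mt1 (0.11) was -0.014 to 0.22. None of these passed the test, and the cause was not tested. The fold changes of Cdkn1a and Pdk4 were lowest without estrus replicate 1, at 0.19 and 0.21. With a replicate left out, 1 to 6 genes passed the F test between tissues, against 5, and the median share of variation between tissues was 78.1% to 82.8%, against 78.8%, the highest without estrus replicate 1. A replicate block left 0 pairs called and the F test again called 5 genes. Tests of neighbours in the order of tissues gave 0 calls under every setting and say nothing of stability. In 1 phase alone, with 3 libraries against 3, they could not pass. With 6 against 6, a call needed more neighbours at the smallest p than the 3 of the main setting. Precision is limited by 3 libraries per group and an unknown depth.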
